A study of Mus musculus with 14 samples.

Results

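The comparison described here set 2 libraries of uninduced control cells at day 4 against 2 libraries of the same control line at day 0, which is 4 of the 14 libraries in the series. They were chosen by their sample titles. All 4 came from KL974, a mouse acute myeloid leukemia (AML) line. Its label genotype is Trp53R172H (a mutant form of the tumor suppressor p53), shMll3 and shNf1 (short hairpin RNAs, or shRNAs, against Mll3 and Nf1). The cells were cultured with the cytokines IL3, IL6 and SCF. All 4 libraries also shared a lentiviral control hairpin, shRen713, which doxycycline induces along with BFP, a blue fluorescent protein. The day 0 cells were untreated and their titles name no sort. The day 4 cells had received doxycycline and were the BFP-negative cells of a flow sort, that is, cells that had not switched the hairpin on. Time in culture, doxycycline and sorting differ together between the groups and cannot be told apart. No hairpin against Ogdh was present, so the comparison shows how far control cells moved over the experiment without one. No label says that the replicates were separate cultures or that KL974 is 1 clone, so the p-values below speak of differences among these libraries, whose spread may be technical.

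Several gene systems recur below. Immediate early genes, such as Egr1, Fos and Jun, encode transcription factors that growth factor signalling through the ERK kinases switches on within minutes, and handling or sorting cells can switch on the same genes. Txnip encodes a protein that binds thioredoxin and restrains glucose uptake, and its transcription follows the cell's glucose load. The mitochondrial genome encodes subunits of the respiratory chain and the ribosomal RNAs of the mitochondrion. Ribosome biogenesis genes, many of them targets of the transcription factor MYC, build the cytosolic ribosome in growing cells. Doxycycline is a tetracycline antibiotic, a class known to act on bacterial and mitochondrial ribosomes.

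The day 0 libraries held 2831835 and 2567604 counts, and the uninduced day 4 libraries held 3663014 (replicate 1) and 10271698 (replicate 2), the latter 4.00 times the smallest of the 4. A gene with no count in a library could therefore still have been present at up to 1.06 and 1.17 CPM (counts scaled to the library's size) at day 0, and at up to 0.819 and 0.292 CPM at day 4 (3 counts, 95% limit). Such limits cover counting error only. The chi-square per degree of freedom between replicates was 2.71 for the day 4 pair and 1.16 for the day 0 pair, the ends of the range over the 7 groups. This value grows with depth, and the day 4 pair holds the deepest library of the series. Of the defining myeloid genes, Kit was at 557 and 499 CPM at day 0 and 496 and 499 CPM at day 4, but Cd34, Cebpa and Hoxa9 had 0 counts in all 4 libraries and Mpo had 1 count in all. The erythroid gene Hba-a1 was at 224 and 239 CPM at day 0 and 185 and 158 CPM at day 4, whereas neutrophil markers summed to at most 1.06 CPM, monocyte markers to at most 4.77 CPM, B cell markers to at most 0.389 CPM and T cell markers to at most 0.779 CPM. In these sums CPM was taken on the library total, and elsewhere on the normalized library size.

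Of 10791 genes tested, 414 were higher and 452 were lower at day 4 than at day 0, that is 3.84% and 4.19% of the genes, 8.03% together. Calls were made at a Benjamini-Hochberg adjusted p under 0.05 in edgeR's quasi-likelihood test, and 2371 genes had an unadjusted p under 0.05. Most differences were small. The median log2 difference was 0.49 among the genes called higher and -0.37 among those called lower, 43 genes rose and 21 fell by more than 2-fold, and the median over all tested genes was 0.01. In 865 of the 866 called genes the libraries of the 2 groups did not overlap, against 26.5% of all tested genes with both day 4 libraries above both day 0 libraries and 25.0% with both below. The calls and the overlap rest on the same values. Genes named below by rank of change or p had to pass this condition, so it adds no support for them. How many genes were called depended on single libraries: 222 were called without day 0 replicate 2, 222 without day 4 replicate 2, 303 without day 0 replicate 1 and 1023 without day 4 replicate 1. DESeq2 called 262.

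**Figure D1:**
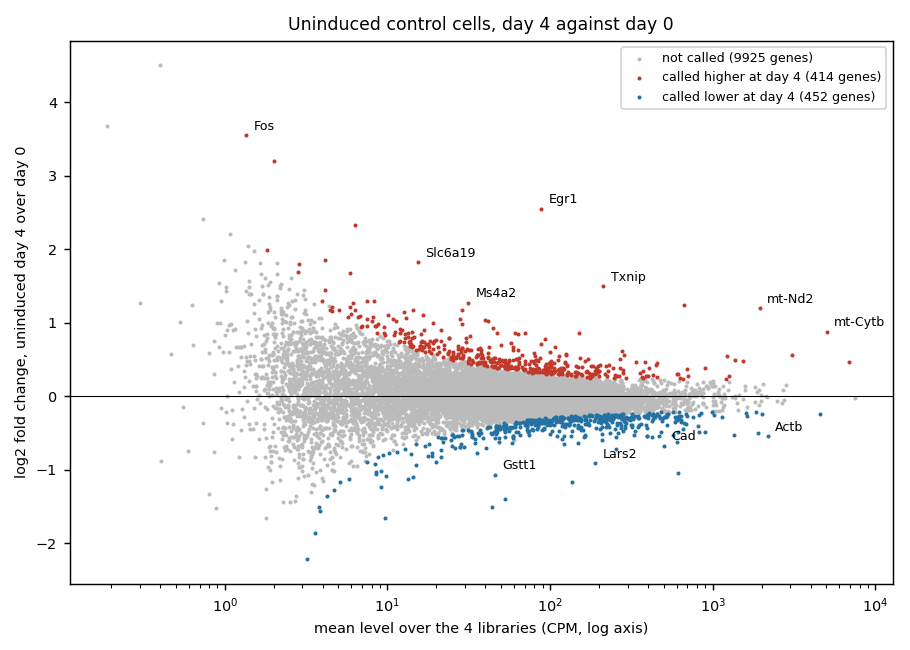
Log2 fold change of uninduced day 4 over day 0 (vertical axis) against the mean level over the 4 libraries (horizontal axis, CPM on a log scale), with 1 point for each of the 10791 tested genes; red points are the 414 genes called higher and blue points the 452 called lower. Egr1 and Txnip stand above other genes of their level, and most called genes lie within 2-fold of day 0.

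Egr1, an immediate early transcription factor gene (chromosome 18, 34859823 to 34864984, GRCm38), was the gene with the smallest p of all. It was at 24.1 and 27.0 CPM in the day 0 libraries and at 165 and 138 CPM in the day 4 libraries, a rise of 5.86-fold (log2 difference 2.55 ± 0.13 SE, edgeR adjusted p = 1.32e-24). The groups lie far apart, and the call held whichever library was left out. At day 2 uninduced cells had 50.1 and 55.5 CPM, between the other groups, and the day 4 level was higher than the day 2 level by 1.48 ± 0.11 (log2, adjusted p = 7.1e-17). Induced cells of day 4, from the other side of the same BFP sort, had 188 and 213 CPM, above the uninduced cells (log2 difference of uninduced to induced -0.42 ± 0.09 SE, adjusted p = 0.0432).

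A few other immediate early genes were also called. Of 33 genes listed as immediate early or ERK feedback genes, 25 could be tested. Of these 5 were called higher (Fos, Egr1, Dusp1, Jun and Ier2), 3 lower (Fosl1, Etv5 and Myc) and 17 were not called. That is 20% higher and 12% lower against 3.84% and 4.19% of all genes. Fos, the partner of Jun in the AP-1 dimer, had 1 and 0 counts at day 0 and 9 and 27 counts at day 4, a ratio of rates of 13.9 (95% exact interval 2.35 to 566). That interval pools the 2 libraries of each group and covers counting error only. Jun went from 24.5 and 20.3 CPM to 39.9 and 36.5 CPM (log2 difference 0.74 ± 0.16 SE, edgeR adjusted p = 0.0015). Ier2, a nuclear immediate early protein gene, went from 48.6 and 44.5 to 68.1 and 63.0 CPM, and Dusp1, a phosphatase that switches off MAP kinases, from 3.55 and 5.86 to 8.95 and 9.02 CPM. In each of these the day 4 libraries lie above the day 0 libraries. In the opposite direction, Fosl1, which encodes another AP-1 subunit, fell from 20.6 and 24.2 to 14.9 and 11.6 CPM (log2 difference -0.82 ± 0.19 SE), and Myc fell from 349 and 346 to 304 and 284 CPM (log2 difference -0.25 ± 0.08 SE, adjusted p = 0.0375). Among ERK feedback genes, Dusp6 had 13.8 and 17.6 CPM at day 0 and 20.1 and 15.0 CPM at day 4, while Spry4 had 35.8 and 35.9 CPM at day 0 and 39.9 and 34.8 CPM at day 4, neither called. Leaving out 1 library ended the call of Myc (adjusted p = 0.185 to 0.327 without day 0 replicate 1, day 0 replicate 2 or day 4 replicate 2), of Ier2 (0.0507 without day 0 replicate 1 and 0.168 without day 0 replicate 2) and of Etv5 (0.647 without day 0 replicate 1 and 0.517 without day 4 replicate 2). The same was so of Jun (adjusted p = 0.0962 without day 0 replicate 2) and of Fosl1 (0.121 without day 0 replicate 2 and 0.229 without day 4 replicate 2). It also ended that of Fos (0.0691 to 0.203 without day 0 replicate 1, day 0 replicate 2 or day 4 replicate 2) and of Dusp1 (0.0568 to 0.466 without 1 of the 4 libraries, whichever it was). Across the libraries left out, the number of the 25 called higher ran from 1 to 4 and the number called lower from 0, without day 4 replicate 2, to 3. A list of genes known to respond to cell dissociation and sorting gave the same 5 called higher and none lower of 15 tested (33.3%), since those 5 genes stand in both lists. Day 0 titles name no sort, and the part of sorting in these rises was not tested.

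The promoters of Fos and Dusp1 are shown because both genes rose and both carry copies of TGACGT, the core of the cyclic AMP response element. Capitals mark TGACGT and its reverse complement ACGTCA; the 250 bases before the first listed start are given, in the gene's own direction (RefSeq, GRCm38.p6).
Fos, chr12:85473640-85473889, plus strand: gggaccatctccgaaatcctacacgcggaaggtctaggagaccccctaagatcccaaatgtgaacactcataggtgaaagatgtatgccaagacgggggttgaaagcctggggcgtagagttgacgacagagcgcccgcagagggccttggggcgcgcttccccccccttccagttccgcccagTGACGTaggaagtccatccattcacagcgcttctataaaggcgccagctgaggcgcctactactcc
Dusp1, chr17:26508473-26508722, minus strand: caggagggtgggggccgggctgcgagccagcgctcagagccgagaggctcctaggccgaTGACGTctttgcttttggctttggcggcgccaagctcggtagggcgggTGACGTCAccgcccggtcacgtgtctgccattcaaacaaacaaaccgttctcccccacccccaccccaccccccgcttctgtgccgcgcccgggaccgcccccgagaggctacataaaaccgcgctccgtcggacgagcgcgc
TGACGT, on either strand, was present in the 300 bases around the start (250 before and 50 after) in 7.65% of 27025 RefSeq promoters and in 13.1% of the 8306 tested genes with a promoter there. It was present in 15.8% of 310 promoters of genes called higher and in 14.5% of 359 promoters of genes called lower. In the list of immediate early genes it was present in 5 of 18 promoters (27.8%), and in the ribosome biogenesis list in 8 of 35 (22.9%). These shares describe letters only.

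Txnip showed the second smallest p. This gene, on chromosome 3, 96557957 to 96561883, was at 119.9 and 103 CPM at day 0 and at 309 and 321 CPM at day 4, a rise of 2.82-fold (log2 difference 1.50 ± 0.09 SE, edgeR adjusted p = 2.63e-22). Its groups did not overlap, which was a condition of naming it, and the call held whichever library was left out. Uninduced cells at day 2 lay between them at 194 and 205 CPM, lower than at day 4 (log2 difference of day 4 to day 2 0.66 ± 0.08 SE, adjusted p = 3.63e-09). Induced day 4 cells had 293 and 299 CPM. The promoter of Txnip is shown because a pair of CACGAG boxes, 5 bases apart, is the known carbohydrate response element through which glucose-sensing factors act on it; capitals mark that element.
Txnip, chr3:96557707-96557956, plus strand: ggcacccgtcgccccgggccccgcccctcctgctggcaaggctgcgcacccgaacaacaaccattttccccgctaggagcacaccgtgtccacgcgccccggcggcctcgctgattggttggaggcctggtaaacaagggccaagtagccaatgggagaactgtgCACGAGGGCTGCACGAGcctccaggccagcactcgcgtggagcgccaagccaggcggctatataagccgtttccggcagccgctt
That pair at this spacing, searched on both strands, occurred in 1 of the 27025 promoter windows, that of Txnip. The search used the exact boxes of the Txnip element, so finding Txnip was fixed in advance. It says nothing of elements spelled with other letters. Slc6a19, a transporter of neutral amino acids, rose from 6.03 and 7.42 to 24.9 and 23.2 CPM, 3.54-fold (log2 difference 1.82 ± 0.23 SE, adjusted p = 1.93e-08). It too was higher at day 4 than in the uninduced day 2 cells (10.7 and 10.26 CPM, adjusted p = 8.19e-06).

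**Figure D2:**
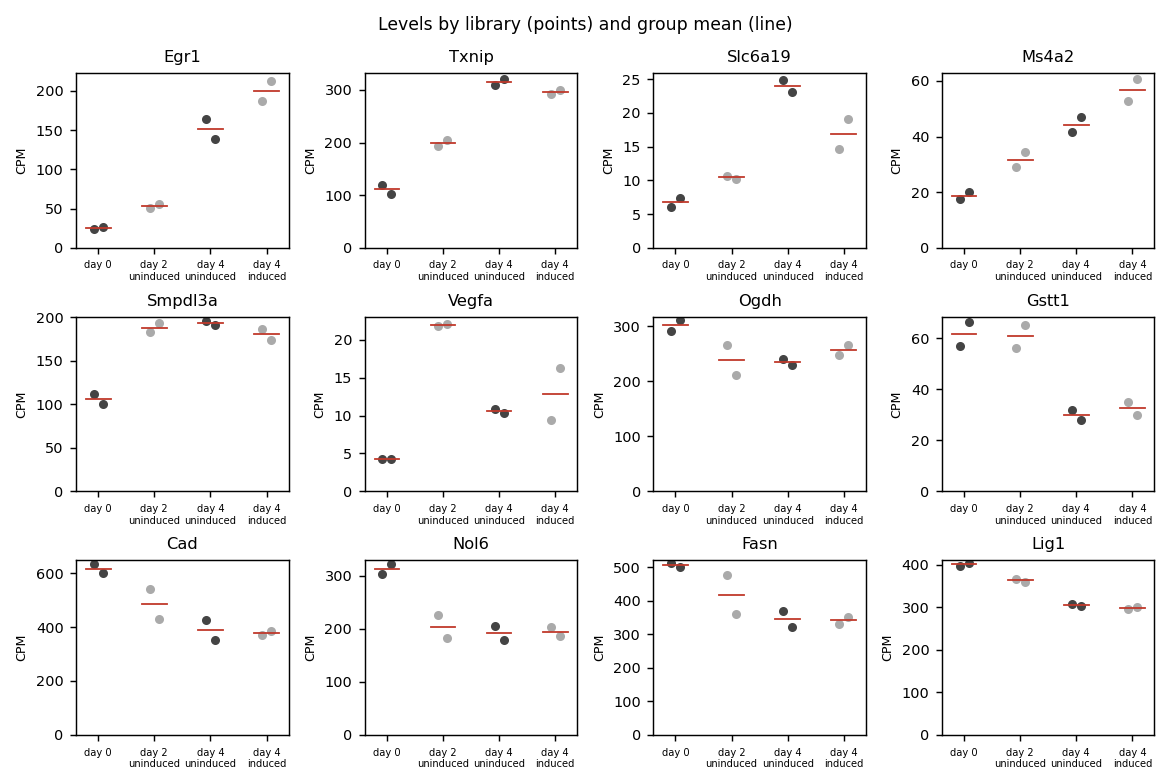
Levels of 12 genes (CPM, vertical axes starting at 0) in the 8 control libraries of day 0, uninduced day 2, uninduced day 4 and induced day 4; points are libraries, black for the compared groups and grey for the other groups, and red lines are means of 2 libraries. Egr1, Txnip, Slc6a19 and Ms4a2 step up from day 0 through day 2 to day 4, Vegfa is highest at day 2, and Gstt1 is lower in both day 4 groups than at day 0 and day 2.

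Mitochondrially encoded transcripts were higher at day 4. Of 15 listed genes of the mitochondrial genome 9 could be tested, and 8 of them were called higher and none lower, with a median log2 difference of 0.55 against 0.01 over all genes. Counts to mitochondrial genes made up 1.63% and 1.56% of all counts at day 0 and 2.29% and 2.82% at day 4. The large ribosomal RNA mt-Rnr2 rose from 369 and 423 to 837 and 1032 CPM (log2 difference 1.25 ± 0.09 SE, edgeR adjusted p = 5.71e-18). Among transcripts for subunits of respiratory complex I, mt-Nd2 rose from 1182 and 1182 to 2441 and 2987 CPM (log2 difference 1.20 ± 0.08 SE, adjusted p = 2.36e-19). Another, mt-Nd1, rose from 2552 and 2420.0 to 3157 and 4196 CPM (log2 difference 0.57 ± 0.08 SE). The cytochrome b gene of complex III, mt-Cytb, rose from 3679 and 3399.6 to 5899.8 and 7082 CPM (log2 difference 0.88 ± 0.07 SE, adjusted p = 3.8e-15). Day 4 replicate 2 was the higher of the day 4 libraries for all 8 transcripts. The rise was uneven: mt-Nd4, mt-Nd5, mt-Nd6 and mt-Co1 differed by 0.46 to 0.55 (log2), and mt-Nd2 and mt-Rnr2 by 1.20 and 1.25. The small ribosomal RNA mt-Rnr1, which neighbours mt-Rnr2, had 119.6 and 116 CPM at day 0 and 109 and 92.5 CPM at day 4 and was not called (log2 difference -0.25 ± 0.10 SE, adjusted p = 0.105). The 4 leading transcripts (mt-Rnr2, mt-Nd2, mt-Cytb and mt-Nd1) kept their calls whichever library was left out. Of the 9 genes, 6 were called without day 4 replicate 2 and 7 without day 0 replicate 2. The mitochondrial ribosomal RNAs carry at most short polyA tails, and these libraries were selected by polyA. Among the listed genes, mt-Nd4l, mt-Co3, mt-Co2, mt-Atp8 and mt-Atp6 had 0 counts in the 4 libraries; such zeros in genes that every cell uses say nothing of their level.

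**Figure D3:**
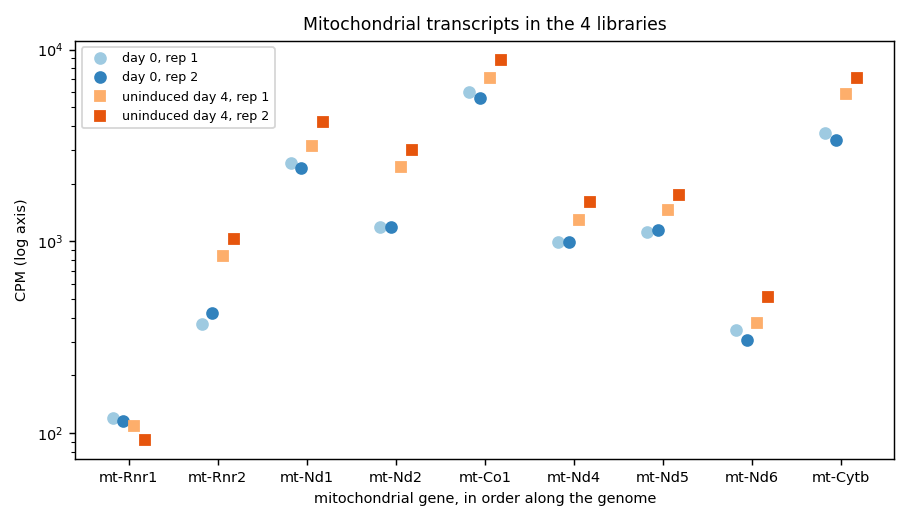
Levels of the 9 tested mitochondrial genes (CPM, log axis) in the 4 libraries, in their order along the mitochondrial genome; circles are day 0 and squares uninduced day 4. Both squares lie above both circles for every gene except mt-Rnr1, where they lie below.

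Most nuclear genes of the mitochondrion in the lists below were not called. Of 78 tested nuclear genes for respiratory chain subunits, 1 was called higher (Cox6b2) and 4 lower, or 1.28% and 5.13% beside 3.84% and 4.19% of all genes. None of the 4 lower calls was left without day 0 replicate 1, without day 0 replicate 2 or without day 4 replicate 2, and none in DESeq2. Of 77 tested mitochondrial ribosomal protein genes 1 was higher (Mrpl24) and 1 lower (Mrpl38), or 1.30% each way. The median log2 differences of these lists were -0.04 and -0.14. Of 17 tested mitochondrial chaperones and proteases 2 were lower (Grpel1 and Clpp), 11.8% beside 4.19% of all genes. Among 34 tested genes of the TCA cycle and related 2-oxoacid dehydrogenases 2 were lower, Got2 and Ogdh, and none higher. That is 5.88% lower beside 4.19% of all genes, and the median of this list was 0.01. Got2, the mitochondrial aspartate aminotransferase gene, went from 168 and 153 to 123 and 122 CPM (log2 difference -0.40 ± 0.09 SE, edgeR adjusted p = 0.00263, but 0.136 without day 0 replicate 1). The call of Cox6b2 was lost with 1 library fewer (adjusted p = 0.115 without day 0 replicate 1 and 0.0883 without day 0 replicate 2). So were those of Mrpl24 (0.21 to 0.445 without day 0 replicate 1, day 0 replicate 2 or day 4 replicate 2) and Mrpl38 (0.117 to 0.329 without day 0 replicate 1, day 0 replicate 2 or day 4 replicate 2), and those of Grpel1 (0.0616 to 0.358 without day 0 replicate 1, day 0 replicate 2 or day 4 replicate 2) and Clpp (0.168 to 0.531 without day 0 replicate 1, day 0 replicate 2 or day 4 replicate 2).

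Ogdh (chromosome 11, 6291633 to 6356642) is the gene that the study's other hairpins target. It encodes the first enzyme of the 2-oxoglutarate dehydrogenase complex in the TCA cycle. In these control cells, which carry no hairpin against it, Ogdh was at 291 and 312 CPM at day 0 and at 239.9 and 230.2 CPM at day 4, a fall of 1.29-fold (log2 difference -0.36 ± 0.08 SE, adjusted p = 0.00202). The groups did not overlap, but the call was lost when 1 library was left out (adjusted p = 0.0914 without day 0 replicate 2 and 0.0539 without day 4 replicate 2). Uninduced cells at day 2 had 266 and 211 CPM and induced control cells at day 4 had 247 and 267 CPM. The uninduced day 4 level differed from neither in the test (log2 difference -0.01 ± 0.08 SE to day 2 and -0.13 ± 0.08 SE to induced cells, adjusted p = 0.986 and 1). The Ogdh promoter is shown because it is the study's target gene and, like Fos and Dusp1, holds TGACGT; capitals mark the overlapping copies of TGACGT and its reverse complement.
Ogdh, chr11:6291347-6291596, plus strand: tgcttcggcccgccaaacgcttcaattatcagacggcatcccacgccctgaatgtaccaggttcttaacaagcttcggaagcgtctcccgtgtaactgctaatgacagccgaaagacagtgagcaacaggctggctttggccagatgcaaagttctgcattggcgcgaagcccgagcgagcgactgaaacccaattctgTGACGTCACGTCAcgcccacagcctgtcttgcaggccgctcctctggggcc

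Of 41 listed genes of ribosome biogenesis and related MYC targets, all tested, 14 were called lower, none higher and 27 were not called, or 34.1% against 4.19% of all genes, and the median log2 difference was -0.21. Cad, the first enzyme of pyrimidine synthesis, had the smallest p of all falls: it went from 634 and 599.9 to 425 and 353 CPM (log2 difference -0.68 ± 0.08 SE, edgeR adjusted p = 1.93e-08). Nol6, a component of the small subunit processome that was named by its p and not from this list, went from 304 and 322 to 206 and 179.6 CPM (log2 difference -0.71 ± 0.09 SE, adjusted p = 1.93e-08). Day 4 libraries lie below day 0 libraries for both, as the naming rule required. Rrp12, which helps export ribosomal subunits, fell from 141.9 and 141.4 to 96.8 and 94.0 CPM (-0.58 ± 0.09 SE), and Noc4l from 162 and 155.1 to 120.4 and 109.8 CPM (-0.47 ± 0.09 SE). Bop1, a factor of large subunit processing, fell from 312 and 313 to 241 and 224 CPM (-0.43 ± 0.08 SE), each on the log2 scale. These 5 genes kept their calls whichever library was left out, and 9 to 15 of the 41 were called lower across the libraries left out. The other called members included Polr1a and Polr1b, subunits of RNA polymerase I, with log2 differences of -0.40 and -0.32. The nucleolar genes Heatr1, Utp20, Nop2 and Nolc1 differed by -0.42 to -0.33. Of these 6 only Polr1b lost its call with 1 library fewer (adjusted p = 0.178 without day 0 replicate 1 and 0.0671 without day 4 replicate 2). Myc itself differed by -0.25 (log2). Of 76 tested genes of cytosolic ribosomal proteins, 3 were higher, among them Rpl39 and Rps24, and 1 lower (Rpl41), with a median of 0.04. That is 3.95% higher and 1.32% lower, beside 3.84% and 4.19% of all genes. Among the called ribosomal protein genes, Rpl39 differed most (0.47 ± 0.09 SE, log2). Leaving out 1 library ended the calls of Rpl39 (adjusted p = 0.148 without day 4 replicate 2), Rps24 (0.116 to 0.314 without day 0 replicate 1, day 0 replicate 2 or day 4 replicate 2) and Rpl41 (0.064 to 0.443 without day 0 replicate 1, day 0 replicate 2 or day 4 replicate 2).

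MYC binds the E-box CACGTG. That sequence, which reads the same on both strands, was present in the 300 bases around the start in 25.7% of the 35 ribosome biogenesis promoters found (9 promoters). It was present in 13.9% of the promoters of genes called lower, in 7.42% of those called higher, in 10.8% over the tested genes and in 7.24% of all 27025 promoters. These shares, too, describe letters only. The list was drawn up to hold MYC targets, so its share is not a result of these data. Transcripts of genes called lower also had a higher median GC content (53.6%) than those called higher (46.0%), and the part of GC content in these shares was not tested. The Cad promoter is given because Cad leads the list. The 250 bases before its start hold no CACGTG and 2 copies of TGACGT, marked by capitals.
Cad, chr5:31054530-31054779, plus strand: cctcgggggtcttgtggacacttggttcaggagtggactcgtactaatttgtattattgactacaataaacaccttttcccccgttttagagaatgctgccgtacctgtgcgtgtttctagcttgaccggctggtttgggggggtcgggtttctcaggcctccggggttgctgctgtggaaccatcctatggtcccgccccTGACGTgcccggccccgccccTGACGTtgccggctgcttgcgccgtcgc

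Some genes of DNA replication and nucleotide synthesis fell. Of 40 tested replication genes 9 were called lower, 1, the cyclin E2 gene Ccne2, higher and 30 were not called (22.5% and 2.50%, beside 4.19% and 3.84%), with a median log2 difference of -0.15. Lig1, the ligase that seals Okazaki fragments, went from 397 and 405 to 308 and 303 CPM (log2 difference -0.39 ± 0.07 SE, edgeR adjusted p = 0.000193) and kept its call whichever library was left out. Among subunits of the MCM helicase, which opens DNA at origins, 5 were lower: Mcm5 by -0.35, Mcm3 by -0.33, Mcm7 by -0.28, Mcm2 by -0.26 and Mcm4 by -0.24 on the log2 scale. Each of these 5 calls was lost without day 0 replicate 1 and without day 4 replicate 2, and that of Ccne2 without 1 library (adjusted p = 0.27 without day 0 replicate 2 and 0.544 without day 4 replicate 2). Cdt1, which loads that helicase, had 249.1 and 254 CPM at day 0 and 210.4 and 181 CPM at day 4 (call lost without 1 library, adjusted p = 0.172 without day 4 replicate 2). Rrm2, a ribonucleotide reductase subunit, had 141.6 and 153 and 111 and 115 CPM (lost, 0.126 without day 0 replicate 2). Across the libraries left out, 3 to 9 replication genes were called lower, with 3 without day 0 replicate 1 and 3 without day 4 replicate 2. Purine and pyrimidine synthesis had 5 of 28 tested genes lower, 1 higher and 22 not called (17.9% lower and 3.57% higher, 2 to 5 lower across the libraries left out). Gart, an enzyme of purine synthesis, fell from 364 and 365 to 285 and 265 CPM (log2 difference -0.41 ± 0.08 SE, adjusted p = 0.000165), while the CTP synthase gene Ctps2 went up from 23.8 and 21.1 to 33.6 and 35.4 CPM (lost without 1 library, adjusted p = 0.146 without day 0 replicate 2 and 0.119 without day 4 replicate 2). Cad and Rrm2 are among the nucleotide synthesis genes called lower and were also counted above, Cad in the ribosome biogenesis list and Rrm2 in the replication list. E2f2, a transcription factor of the G1 to S transition, fell from 188 and 201 to 138 and 131 CPM (log2 difference -0.54 ± 0.09 SE, adjusted p = 7.76e-06), and kept its call whichever library was left out. Of 32 tested mitosis genes 1 was higher (Hmmr) and 1 lower (Plk1), with a median of 0.03. These calls are 3.1% each way, beside 3.84% and 4.19% of all genes. Both calls were lost with 1 library fewer (adjusted p for Hmmr = 0.0534 to 0.644 without day 0 replicate 1, day 0 replicate 2 or day 4 replicate 2, and for Plk1 = 0.211 to 0.44 without day 0 replicate 1, day 0 replicate 2 or day 4 replicate 2).

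Glycolysis, hypoxia and lipid synthesis genes showed a course that the day 0 to day 4 comparison alone shows only in part. Of 22 tested glycolysis and lactate export genes 5 were lower at day 4 than at day 0 and none higher (22.7% beside 4.19% of all genes lower). Aldoa, the aldolase gene, led them at 373 and 344 CPM against 292 and 261 CPM (log2 difference -0.39 ± 0.09 SE, edgeR adjusted p = 0.00174). None of the 22 was called without day 0 replicate 1 and none without day 4 replicate 2 (for Aldoa, adjusted p = 0.0928 without day 0 replicate 1 and 0.105 without day 4 replicate 2). Relative to uninduced day 2 cells, 13 of the 22 were lower at day 4, beside 3.8% of all genes lower in that comparison. Ldha, whose enzyme makes lactate, had 538 and 541 CPM at day 0, 702 and 738 CPM at day 2 and 473 and 456 CPM at day 4. The list's median was 0.32 for day 2 over day 0 and -0.16 for day 4 over day 0 (log2, comparisons that share the day 0 libraries). Vegfa, a hypoxia-responsive growth factor gene, had 4.26 and 4.30 CPM at day 0, 21.8 and 22.2 CPM at day 2 and 10.8 and 10.4 CPM at day 4. Day 4 was above day 0 (log2 difference 1.29 ± 0.30 SE, adjusted p = 0.00299, but 0.0672 without day 0 replicate 1 and 0.0656 without day 0 replicate 2) and below day 2 (-1.06 ± 0.19 SE, adjusted p = 6.52e-05). Ddit4, a hypoxia and stress gene that restrains mTOR, followed the same order with 22.4 and 15.6, 64.2 and 55.7 and 26.8 and 30.5 CPM. Of 19 tested hypoxia genes 3 were higher at day 4 than at day 0 (Vegfa, Ddit4 and the histone demethylase gene Kdm3a) and none lower, 15.8% beside 3.84% of all genes higher. The calls of Ddit4 (adjusted p = 0.409 without day 0 replicate 2 and 0.31 without day 4 replicate 2) and Kdm3a (0.0682 without day 0 replicate 2 and 0.163 without day 4 replicate 2) were lost without 1 library, and the count ran from 0 to 4 across the libraries left out. In sterol and fatty acid synthesis 3 of 36 tested genes were lower than at day 0 (8.33% beside 4.19%), and 1 of the 36 was without day 0 replicate 1, without day 0 replicate 2 or without day 4 replicate 2. Fasn, the fatty acid synthase gene, was at 511 and 502 CPM against 369 and 322 CPM (log2 difference -0.56 ± 0.08 SE, adjusted p = 2.1e-06), a call that held whichever library was left out. Against day 2, 21 of those 36 were lower at day 4. The list's median was 0.30 for day 2 over day 0 and -0.03 for day 4 over day 0.

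Among genes of antioxidant defence and protein quality control, most members were not called, and many calls were lost with 1 library fewer. Of 22 tested NRF2 antioxidant genes 7 were called lower and none higher (31.8% beside 4.19% of all genes lower), with 1 to 4 lower across the libraries left out. Srxn1, which repairs oxidized peroxiredoxin, fell from 70.6 and 71.5 to 46.6 and 45.4 CPM (log2 difference -0.63 ± 0.12 SE, edgeR adjusted p = 0.000103) and kept its call in each case. Gsr, the glutathione reductase gene, was at 173 and 168 CPM at day 0 and 136 and 139 CPM at day 4, and its call was lost with 1 library fewer (adjusted p = 0.0848 to 0.171 without day 0 replicate 1, day 0 replicate 2 or day 4 replicate 2). Of 48 tested proteasome genes 8 were lower (16.7%) and none higher, with a median of -0.12, but 0 were called without day 0 replicate 1, 0 without day 4 replicate 2 and 1 without day 0 replicate 2. Gstt1, a glutathione S-transferase gene named by its fall, went from 56.8 and 66.4 to 32.0 and 27.9 CPM (log2 difference -1.07 ± 0.13 SE, adjusted p = 1.93e-08). In uninduced day 2 cells it was still at 56.1 and 65.3 CPM, and the day 4 level was lower than that too (adjusted p = 3.51e-09). Cytosolic heat shock genes had 3 of 17 tested lower and 1 higher, endoplasmic reticulum folding genes 2 of 23 lower and 1 higher, and amino acid stress genes driven by ATF4 3 of 30 lower and 1 higher. These are 17.6%, 8.70% and 10.0% lower beside 4.19% of all genes, and 5.88%, 4.35% and 3.33% higher beside 3.84%. Without day 0 replicate 1, day 0 replicate 2 or day 4 replicate 2, no gene of these 3 lists was called higher, 0 or 1 heat shock gene was called lower, and none of the other 2 lists was. Atf4 itself was at 477 and 502 and 490.2 and 469 CPM and Asns, its asparagine synthetase target, at 809.8 and 818 and 859.7 and 849 CPM, neither called.

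Lineage genes changed in a few members. Of 20 listed mast cell, basophil and eosinophil genes 7 could be tested, and 3 were higher and none lower (42.9% beside 3.84% of all genes higher), with 1 higher without day 4 replicate 2. Ms4a2, the beta chain of the high-affinity IgE receptor, rose from 17.4 and 19.9 to 41.5 and 46.9 CPM (log2 difference 1.27 ± 0.16 SE, edgeR adjusted p = 2.18e-08) and kept its call whichever library was left out. Fcer1a, the alpha chain of that receptor, had 0 counts in both day 0 libraries and in day 4 replicate 1, and 1 count in day 4 replicate 2. Il1rl1, the IL33 receptor gene, went from 146 and 139 to 185 and 215 CPM (call lost, adjusted p = 0.0671 without day 4 replicate 2), and Srgn, the core protein of granule proteoglycans, from 330.0 and 326 to 403 and 431 CPM (lost, 0.0723 without day 0 replicate 2 and 0.112 without day 4 replicate 2). Among 24 tested erythroid and megakaryocyte genes 5 were higher and 4 lower (20.8% and 16.7% beside 3.84% and 4.19% of all genes). With 1 library left out, 1 to 3 were called higher, 1 lower without day 0 replicate 2 and 0 lower without day 4 replicate 2. Globin genes were among those that fell: Hba-a1 was at 224 and 239 CPM at day 0 and at 185 and 158 CPM at day 4 (log2 difference -0.45 ± 0.09 SE, adjusted p = 0.000193), and Hbb-bs at 164 and 175 and 131 and 121 CPM (-0.44 ± 0.09 SE, adjusted p = 0.00121). Without day 4 replicate 2 the log2 difference of Hba-a1 was -0.33 and its call was lost (adjusted p = 0.0767). That of Hbb-bs was -0.39 without that library (adjusted p = 0.0619) and -0.40 without day 0 replicate 2 (adjusted p = 0.0596). Near-identical copies (Hba-a1 with Hba-a2, Hbb-bs with Hbb-bt) share reads, and their separate values are uncertain. Of the regulators of these lineages, Gata1 was at 355 and 347 and 326 and 319 CPM, Klf1 at 179.6 and 193 and 225 and 199 CPM and Kit at 557 and 499 and 496 and 499 CPM, none called. Of 31 listed granulocyte and monocyte genes 2 could be tested and none was called.

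Dcn, the gene of the matrix proteoglycan decorin, is a fibroblast marker and was at 4.61 and 5.08 CPM at day 0 and 11.1 and 12.3 CPM at day 4 (log2 difference 1.30 ± 0.29 SE, edgeR adjusted p = 0.00174, but 0.0637 without day 0 replicate 1 and 0.0741 without day 4 replicate 2). The stromal markers Col1a1, Col3a1 and Pdgfra had almost no counts: Col1a1 and Col3a1 had 0 counts at day 0 and 0 and 1 counts at day 4, and Pdgfra had 0 counts in the 4 libraries. These markers summed with Dcn, almost all of it Dcn, were 4.59 and 5.06 CPM at day 0 and 11.2 and 12.6 CPM at day 4. In a longer list of 10 fibroblast and stromal genes, 4 could be tested. Dcn was called higher (25% beside 3.84% of all genes), and the other tested members were not called. Of 22 interferon response genes tested 2 were higher (Stat2 and Irf9), 9.09% beside 3.84% of all genes. None of the 10 tested MHC genes and none of the 15 tested BCL2 family genes was called in edgeR. Of 18 tested p53 target genes 1 was higher (5.56%, near the 3.84% of all genes), Perp, a membrane protein gene at 35.8 and 31.2 CPM at day 0 and 57.5 and 62.9 CPM at day 4 (adjusted p = 2.23e-06). It was higher still in uninduced day 2 cells, at 105 and 112 CPM. The calls of Stat2 (adjusted p = 0.0577 without day 0 replicate 1 and 0.201 without day 0 replicate 2) and Irf9 (0.0643 to 0.26 without 1 of the 4 libraries, whichever it was) were lost without 1 library. Trp53 itself, mutant in this line, was at 361 and 353 CPM at day 0 and 286 and 263 CPM at day 4 (log2 difference -0.39 ± 0.08 SE, adjusted p = 0.00155, but 0.0691 without day 4 replicate 2).

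**Figure D4:**
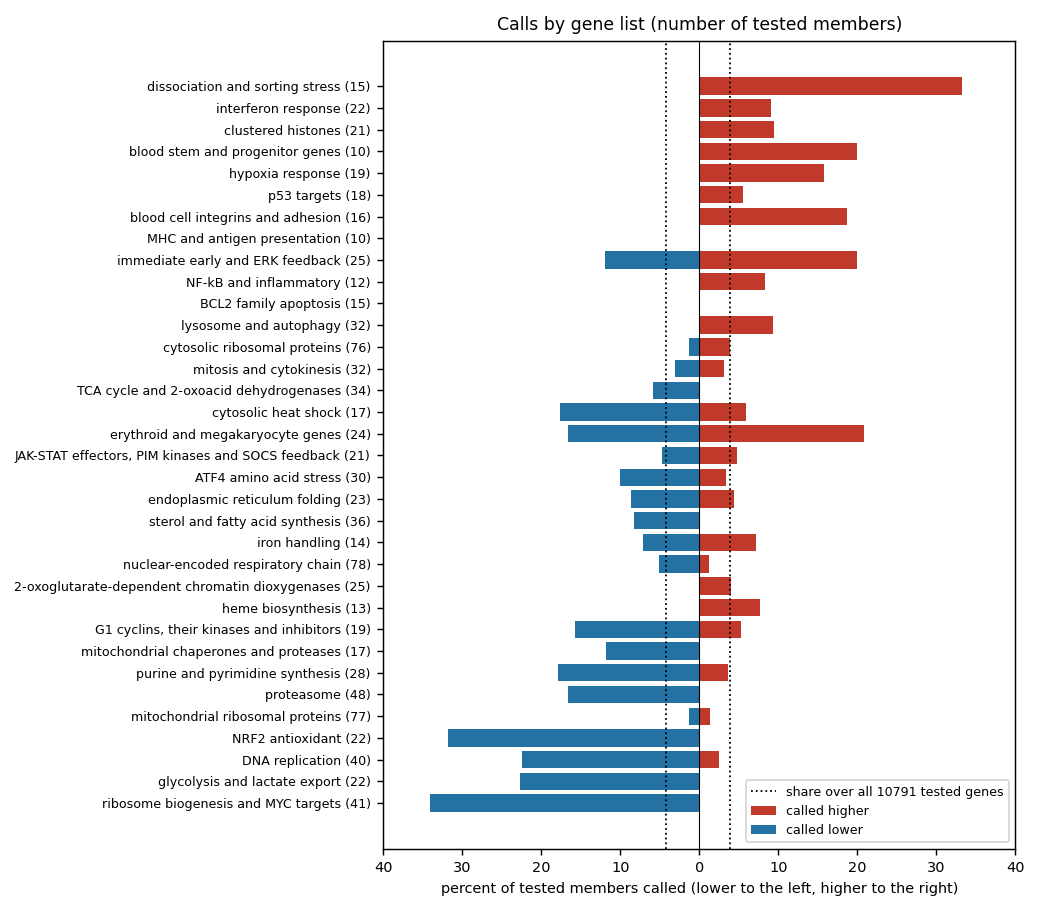
Percent of the tested members of each gene list that were called higher (red, to the right) or lower (blue, to the left) at uninduced day 4 than at day 0, for the lists with at least 10 tested members, ordered by their median log2 difference; dotted lines mark 3.84% and 4.19% of all genes. Ribosome biogenesis, glycolysis, DNA replication and NRF2 lists reach farthest to the lower side, and the dissociation and sorting list farthest to the higher side.

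The remaining genes of the largest changes were mixed in function. Tspoap1, a peripheral benzodiazepine receptor-associated protein gene, rose from 16.7 and 18.4 to 40.7 and 38.9 CPM (log2 difference 1.17 ± 0.17 SE, edgeR adjusted p = 6.14e-07), and Smpdl3a, a secreted phosphodiesterase gene, from 111 and 101 to 196 and 192 CPM (log2 difference 0.87 ± 0.09 SE, adjusted p = 5.57e-11). Both kept their calls whichever library was left out. Flt3l, the FLT3 ligand gene, was at 5.32 and 1.95 and 7.59 and 9.60 CPM, the transcription factor gene Foxc1 at 4.26 and 3.52 and 8.13 and 9.21 CPM, and the Notch ligand gene Jag1 at 2.13 and 3.91 and 7.59 and 6.40 CPM. These 3 low genes were each called in the full set but not without 1 library (adjusted p for Flt3l = 0.366 without day 0 replicate 2 and 0.269 without day 4 replicate 2, for Foxc1 = 0.096 to 0.216 without day 0 replicate 1, day 0 replicate 2 or day 4 replicate 2 and for Jag1 = 0.0734 to 0.426 without 1 of the 4 libraries, whichever it was). The abundant genes Myh9, Actb and Snrnp200 led the falls by p beside Cad, Nol6 and Gstt1. Myh9, the heavy chain of nonmuscle myosin, fell from 727 and 744 to 494 and 463 CPM (log2 difference -0.62 ± 0.08 SE, adjusted p = 1.93e-08), Actb, beta actin, from 2645 and 2555 to 1887 and 1680.0 CPM (-0.55 ± 0.07 SE), and Snrnp200, a helicase of the spliceosome, from 1582 and 1597 to 1124 and 1084 CPM (-0.53 ± 0.07 SE). All 3 calls held whichever library was left out.

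Some of the largest falls were in genes of low level, and each of these lost its edgeR call with at least 1 library fewer. Ecm1, an extracellular matrix protein gene, was at 24.5 and 26.6 CPM at day 0 and 15.5 and 12.8 CPM at day 4 (adjusted p = 0.0966 without day 4 replicate 2). Dusp14, a dual specificity phosphatase gene, was at 6.74 and 9.76 and 2.44 and 4.27 CPM (0.0707 without day 4 replicate 1 and 0.364 without day 0 replicate 2). Snrpf, for a core protein of spliceosomal particles, was at 11 and 12.1 and 5.69 and 5.43 CPM (0.0603 to 0.148 without day 0 replicate 1, day 0 replicate 2 or day 4 replicate 2). Bcar3 was at 11 and 8.20 and 5.69 and 4.94 CPM (0.0805 to 0.424 without day 0 replicate 1, day 0 replicate 2 or day 4 replicate 2), and Rtl10 at 10.6 and 11.3 and 7.05 and 5.82 CPM (0.179 to 0.409 without day 0 replicate 1, day 0 replicate 2 or day 4 replicate 2). The ribosomal protein pseudogenes Rpl14-ps1, Rpl31-ps8 and Rpl28-ps1 had log2 differences of -1.23, -1.09 and -1.03 , and they may share reads with their parent genes. Their calls were lost without day 0 replicate 2 (adjusted p = 0.214, 0.192 and 0.123) and without day 4 replicate 2 (0.0712, 0.182 and 0.278). Mir6236 was at 78.8 and 66.0 CPM at day 0 and 48.8 and 16.8 CPM at day 4 (log2 difference -1.40 ± 0.20 SE), and Lars2, the mitochondrial leucyl-tRNA synthetase gene, at 239.9 and 248.8 and 172 and 99.97 CPM (-0.91 ± 0.13 SE). In both, the day 4 replicates differed widely, with replicate 2 the lower. The annotated ribosomal RNA gene CT010467.1 differed the same way between those replicates, with 894 and 726 CPM at day 0 and 589.7 and 223 CPM at day 4. The part of ribosomal RNA carried over into the libraries in the falls of Mir6236 and Lars2 was not tested. DESeq2 did not call Lars2 (adjusted p = 0.126).

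Uninduced cells at day 4 differed from uninduced cells at day 2, which had also received doxycycline and been sorted, in 738 genes (328 or 3.04% higher and 410 or 3.8% lower, 6.84% together). Leaving out a library of either group took that number to between 290 and 776 (290 without day 4 replicate 2 and 317 without day 2 replicate 2). They differed from induced cells of the same day in 8 genes (4 higher and 4 lower, 0.0371% each and 0.0741% together) in edgeR, with 498 at an unadjusted p under 0.05. Among the 8 are Egr1, lower in the uninduced cells, and the beta globin genes Hbb-bs and Hbb-bt, higher in them. Hbb-bs was at 131 and 121 CPM in uninduced and 76.4 and 73.7 CPM in induced cells (log2 difference 0.73 ± 0.11 SE, adjusted p = 1.77e-05), and these near-identical genes share reads. Without 1 library the count was 3 to 16. Side by side, edgeR called 1112 genes for uninduced day 2 over day 0, 866 for uninduced day 4 over day 0 and 767 for induced day 4 over day 0; these comparisons share the day 0 libraries.

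The base composition of the called genes differed by direction. The longest transcripts of genes called higher had a median GC content of 46.0%, those of genes called lower 53.6% and those of all tested genes 49.3%. Among the 1078 genes with the lowest GC content, 1 of 10 equal groups, 6.96% were called higher and 0.371% lower, and in group 9 of 10 3.25% higher and 9.09% lower. The libraries differed in the same property. The log2 deviation of a gene from its mean over the 14 libraries changed by 0.12 and 0.10 per 10 percentage points of GC at day 0, by 0.11 in day 4 replicate 1 and by -0.05 in day 4 replicate 2. Across 10780 genes, which are not independent replicates, the difference between the 2 day 4 replicates followed GC content with a Spearman correlation of 0.49, against 0.06 for the day 0 replicates. With a GC correction for each library, edgeR called 531 genes higher and 552 lower, in place of 414 and 452 of 10791. Under that correction 17 of 41 ribosome biogenesis genes were called lower in place of 14. Of 76 cytosolic ribosomal protein genes, 10 were called higher in place of 3. The 32 genes named by rank, p or target (Ogdh) kept their calls. Of the other genes named above, Ccne2 (adjusted p = 0.0924), Clpp (0.077) and Plk1 (0.0681) lost theirs.

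**Figure D5:**
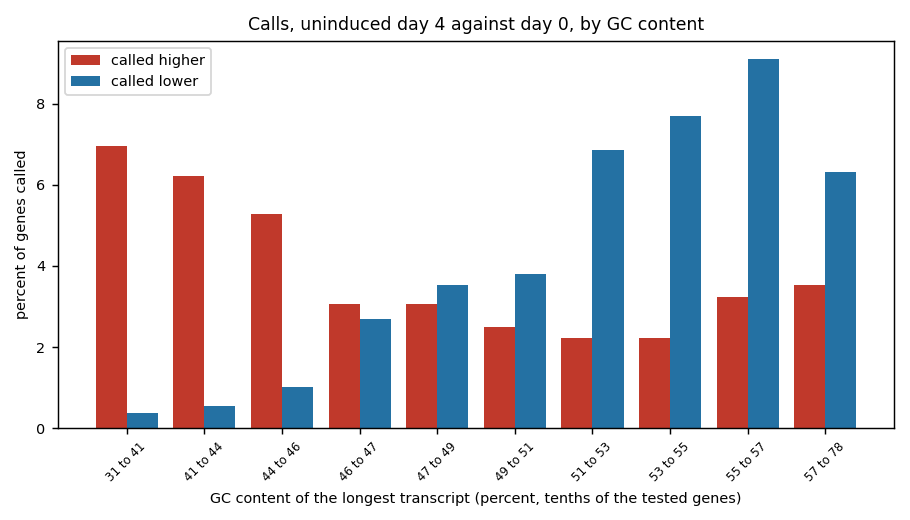
Percent of tested genes called higher (red) and lower (blue) at uninduced day 4 than at day 0, in 10 equal groups of genes by the GC content of their longest transcript (horizontal axis, percent). Genes called higher are most frequent in the group with the lowest GC content (6.96%) and genes called lower in group 9 of 10 (9.09%).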

How the data were processed

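RNA-seq libraries of 14 samples form 7 groups of 2, grouped by their titles. The deposited table holds raw read counts for 53465 genes, with 1 column for each library; the authors' count columns were used as deposited, and the deposited transcript lengths, a column of another kind, were not used in any test. Per the labels' protocols, polyA RNA was made into TruSeq libraries and read from a single end; these protocols give a human build, counting with HTSeq after STAR alignment, and RPKM values. Per the submitters' processing notes, the counter was featureCounts 1.6.3, the aligner STAR 2.6.1a, the trimmer Trimmomatic 0.36 and the build mm10 or GRCm38. Of 53274 genes also in GENCODE M21 (GRCm38), 96.4% have the same start and end there, so coordinates are given on GRCm38. The handling of strand and multimapping reads, not given in the sources used here, leaves overlapping, antisense and near-identical genes uncertain.

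Genes were filtered with filterByExpr (10791 kept), scaled by TMM (factors 0.968 to 1.013) and tested, two-sided, by quasi-likelihood in edgeR 4.0.16 (R 4.3.3), with 1 model over all 14 samples and group as its only term (7 residual degrees of freedom, biological coefficient of variation 5.04%). Fold changes are edgeR's fitted log2 values and SE is their standard error. An exact permutation test of 2 against 2 libraries cannot go below p = 0.333 and was not used. Named were Egr1, Ogdh and, among called genes of at least 5 CPM whose groups do not overlap, the 12 largest rises and falls and the 6 smallest p in each direction, leaving out genes without a proper symbol; from each list, up to 4 called members of largest change and a few that were not called. Other list members given as examples, Nol6 apart, were chosen after their values were seen. A few genes that these rules name are not reported here. The comparison and the 41 gene lists were chosen with earlier results of these data known. Alternatives were DESeq2 1.42.0, other scaling and filters, other sample sets, a replicate block, thinned counts, each library left out and a GC correction. The scripts were tested on simulated counts.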

Additional observations from a re-analysis of the deposited data

Results flagged for a closer look

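Values at day 4 that differed from uninduced day 2 cells, or from induced day 4 cells, were looked at again, since there the difference between groups was itself tested (edgeR's quasi-likelihood test, adjusted over 10791 genes). The genes were taken from the 32 named by rank, p or target for day 4 against day 0. The same day 4 libraries enter that choice and these tests, so the tests are not independent of it. Against uninduced day 2 cells, Egr1 was higher by 1.48 on the log2 scale (adjusted p = 7.1e-17), Slc6a19 by 1.19 (8.19e-06), Txnip by 0.66 (3.63e-09), Tspoap1 by 0.64 (0.00242), Ms4a2 by 0.48 (0.0162) and mt-Rnr2 by 0.26 (0.0461), with both day 4 libraries above the day 2 mean in each. In the opposite direction the log2 difference was -1.07 for Gstt1 (3.51e-09), -1.06 for Vegfa (6.52e-05), -0.32 for Cad (0.00891) and -0.27 for Myh9 (0.0195). Against induced day 4 cells the log2 difference of Egr1 was -0.42 (adjusted p = 0.0432). For a single gene, a group of 2 libraries cannot by itself show which of them stands apart. In depth and in GC content, day 4 replicate 2 differed from day 4 replicate 1 and from the day 0 libraries, as described above.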

How the results depend on the processing

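The 866 genes called between uninduced day 4 and day 0 became 892 with relative log expression factors, 904 with a filter at 5 CPM, 650 with no filter, 825 from the 4 libraries alone, 808 from the 10 control libraries and 1083 with the GC correction, which was chosen after seeing the data. They became 546 with counts thinned to equal library totals, 262 in DESeq2, and 222 to 1023 with 1 library left out (222 without day 0 replicate 2, 222 without day 4 replicate 2 and 303 without day 0 replicate 1), where the lone library of a group was taken to vary like the other groups. The calls split into 398 higher and 494 lower with relative log expression factors, and into 95 and 167 in DESeq2, which differs in its test and filters as well as its scaling. For day 4 against day 2 the 738 calls became 290 to 776 with 1 library left out and 1166 with the GC correction. For uninduced against induced day 4 cells the 8 calls became 3 to 16 with 1 library left out and 18 with the GC correction. With the replicate number as a block over the 10 control libraries, the counts were 937, 876 and 10; the deviations of libraries with the same number correlated at -0.05 to 0.15, so the numbers were not read as pairs. Of the 32 named genes, 17 kept their call whichever library was left out and 16 under every alternative that gave a value, and none turned its direction. Of 136 called genes followed through the alternatives, DESeq2 kept the call of 59 and lost that of 33. It gave no adjusted p for the rest, Perp among them, so these were not only low genes and were not judged by DESeq2. Depth limits the low genes: 0 counts allowed up to 1.17 CPM in the shallowest of the 4 libraries.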
